A study of Mus musculus with 21 samples.

Results

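The variable (V) genes of the immunoglobulin heavy chain, the Ighv genes, were followed in the RNA of intestinal plasma cells sorted from 21 mice. The members were all genes of the deposited count table with a symbol starting Ighv, an annotated biotype starting IG_V and at least 10 counts summed over the 21 libraries. These were 136 of the 183 such genes and pseudogenes in the table, of 53801 genes in all. They comprised 108 of 113 genes annotated as IG_V_gene and 28 of 70 annotated as IG_V_pseudogene. The 47 left out held 43 counts together, of 22041361 on all 183. Just inside the limit were Ighv8-10 with 11 counts and Ighv1-40 and Ighv1-86 with 13 each, and just outside were Ighv2-8 with 8 and Ighv8-13 with 7. Usage of a gene means its percentage of all Ighv counts in a library.

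All mice were C57BL/6 and carried floxed Arntl alleles, Arntl being the gene that encodes the clock protein Bmal1. Control mice (Mb1Cre-/- x Arntlfl/fl, WT in the titles) were sampled at zeitgeber time (ZT, hours after lights on) 0 (n = 6) and 12 (n = 6), and Mb1Cre+/- x Arntlfl/fl mice (KO) at ZT0 (n = 4) and ZT12 (n = 5). Mb1 is another name for Cd79a, so Cre, and with it the loss of Arntl, acts from early B cell development onwards, that is, also while V genes are being rearranged. Mice of both genotypes were littermates housed together, their ages are not given in the labels, and CD138+ IgA+ plasma cells were sorted from the small intestine of each mouse. The genotype was read from the titles, because 8 of the 9 samples titled KO bear the control genotype in the genotype field. Cd79a lay between 412 and 607 CPM (counts scaled to the library total) in the control libraries and between 176 and 285 in the KO libraries, so that it separated all 21 libraries by title. KO and control mice thus differed in Cre and in the Cd79a level as well as in Arntl, and the parts of these cannot be told apart here. Counts over the whole gene do not resolve the floxed exon of Arntl.

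Each B cell joins 1 V, 1 D and 1 J segment into a heavy chain exon, and its plasma cell progeny transcribe that exon at very high levels. The V segment encodes most of the antigen-binding part of the chain, and cells of the same clone share it. Among intestinal IgA plasma cells, clones selected in gut-associated lymphoid tissue can expand and be widely shared along the gut.

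The germline segments of 4 genes are printed here because the results turn on them. Ighv13-2 and Ighv1-78 reached the highest usages in single libraries, whereas Ighv1-26 and Ighv3-6 had the highest mean usages. Each is the last 300 bases of the GENCODE M21 transcript (GRCm38, minus strand of chromosome 12), 5′ to 3′, and lies within the second exon, which encodes the V domain. Capitals mark the part from the conserved cysteine codon TGT to the 3′ end, where the antigen-contacting loop CDR3 begins.
Ighv13-2, chr12:114357759-114358218: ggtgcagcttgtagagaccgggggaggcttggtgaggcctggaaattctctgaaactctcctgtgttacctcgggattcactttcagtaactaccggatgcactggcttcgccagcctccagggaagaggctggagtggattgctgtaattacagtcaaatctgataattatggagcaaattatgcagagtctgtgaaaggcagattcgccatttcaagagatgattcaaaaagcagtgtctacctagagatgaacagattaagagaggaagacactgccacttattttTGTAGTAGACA
Ighv1-78, chr12:115868773-115869227: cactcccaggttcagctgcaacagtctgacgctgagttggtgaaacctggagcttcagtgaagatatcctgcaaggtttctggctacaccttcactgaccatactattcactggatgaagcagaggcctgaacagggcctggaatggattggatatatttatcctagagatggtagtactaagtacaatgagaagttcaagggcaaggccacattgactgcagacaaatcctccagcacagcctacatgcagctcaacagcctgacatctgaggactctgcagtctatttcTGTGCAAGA
Ighv1-26, chr12:114788372-114788805: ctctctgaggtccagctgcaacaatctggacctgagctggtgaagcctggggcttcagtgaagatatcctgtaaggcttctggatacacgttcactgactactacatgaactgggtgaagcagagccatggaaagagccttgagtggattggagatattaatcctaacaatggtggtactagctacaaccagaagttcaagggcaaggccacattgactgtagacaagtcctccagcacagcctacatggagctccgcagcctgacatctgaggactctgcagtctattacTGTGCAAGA
Ighv3-6, chr12:114288152-114288582: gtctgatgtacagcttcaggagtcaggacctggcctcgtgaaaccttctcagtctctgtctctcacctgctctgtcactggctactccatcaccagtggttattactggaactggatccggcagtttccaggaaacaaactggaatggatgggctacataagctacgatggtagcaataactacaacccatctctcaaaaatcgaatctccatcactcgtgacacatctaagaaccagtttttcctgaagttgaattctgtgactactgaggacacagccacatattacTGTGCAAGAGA

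These segments are far apart in sequence. Identity over the shorter transcript was 57.9% between Ighv13-2 and Ighv1-78, 59.8% between Ighv13-2 and Ighv1-26, and 58.6% between Ighv13-2 and Ighv3-6. Ighv1-78 and Ighv1-26, both of family 1, were 85.8% identical. The nearest member to Ighv13-2 was Ighv6-3, at 79.8%, and no stretch of 75 bases of Ighv13-2 occurred exactly in another member. This matters because reads from near-identical segments can be split by a counter. The median member was 94.6% identical to its nearest relative, and 60 of the 136 had another member at 95% or above. The closest were Ighv1-71 and Ighv1-62-2 at 99.7%, whose separate counts are therefore uncertain. Of Ighv1-26, 16.2% of its 75-base stretches were also found in another member, its nearest being Ighv1-18 at 96.9%. No 75-base stretch of Ighv1-78 or Ighv3-6 was shared.

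Between 14471018 and 22785835 reads per library were counted on genes, and 51.5% to 63.6% of these fell on immunoglobulin genes. The Ighv members took 753472 to 1405138 counts per library, or 4.92% to 8.39% of all counts. Marker lists gave summed levels of 45234 to 59796 CPM for plasma cells, with all 8 genes detected, against 11.2 to 41.2 for naive and memory B cells, 27.7 to 145 for germinal centre B cells, 7.81 to 30.5 for T cells, 10.4 to 100.4 for myeloid cells and 52.9 to 388 for epithelial cells. No listed marker was at 0 in every library. Igha, the constant gene of IgA, held at least 99.35% of the heavy chain constant counts in every library. All 46 pairs of libraries within a group differed by more than sampling noise (chi-square per gene of 20.1 to 170), so none was counted as a repeat.

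Usage was spread over many genes. In the mean of the 21 libraries Ighv1-26 held 5.21% ± 1.72 (SD, n = 21), followed by Ighv3-6 at 3.85% ± 2.03, Ighv13-2 at 3.77% ± 10.3, Ighv1-64 at 3.68% ± 1.41 and Ighv5-17 at 3.45% ± 2.41. Neighbours in this order differed by less than their SD. Ighv1-53, Ighv1-81, Ighv9-3, Ighv1-55, Ighv1-76, Ighv10-1 and Ighv1-78 completed the 12 most used, with means of 3.37% down to 2.30%. These 12 held 38.7% of the usage, the first 20 genes 54.7% and the first 50 genes 87.1%. A mean usage above 1% was found for 38 members and one under 0.01% for 41. Per kb of the annotated gene length Ighv1-26, Ighv3-6 and Ighv13-2 kept ranks 1 to 3, so length did not set that order.

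The mean hid very different behaviours. Ighv1-26 was above 1% in all 21 libraries, from 1.39% in control ZT12 replicate 3 to 9.41% in KO ZT12 replicate 5. By median usage it also ranked 1, at 5.30%. Ighv13-2, by contrast, ranked 68 by median, at 0.266%, and exceeded 1% in 3 libraries. Its place among the most used genes thus rests on those 3 libraries.

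**Figure D1:**
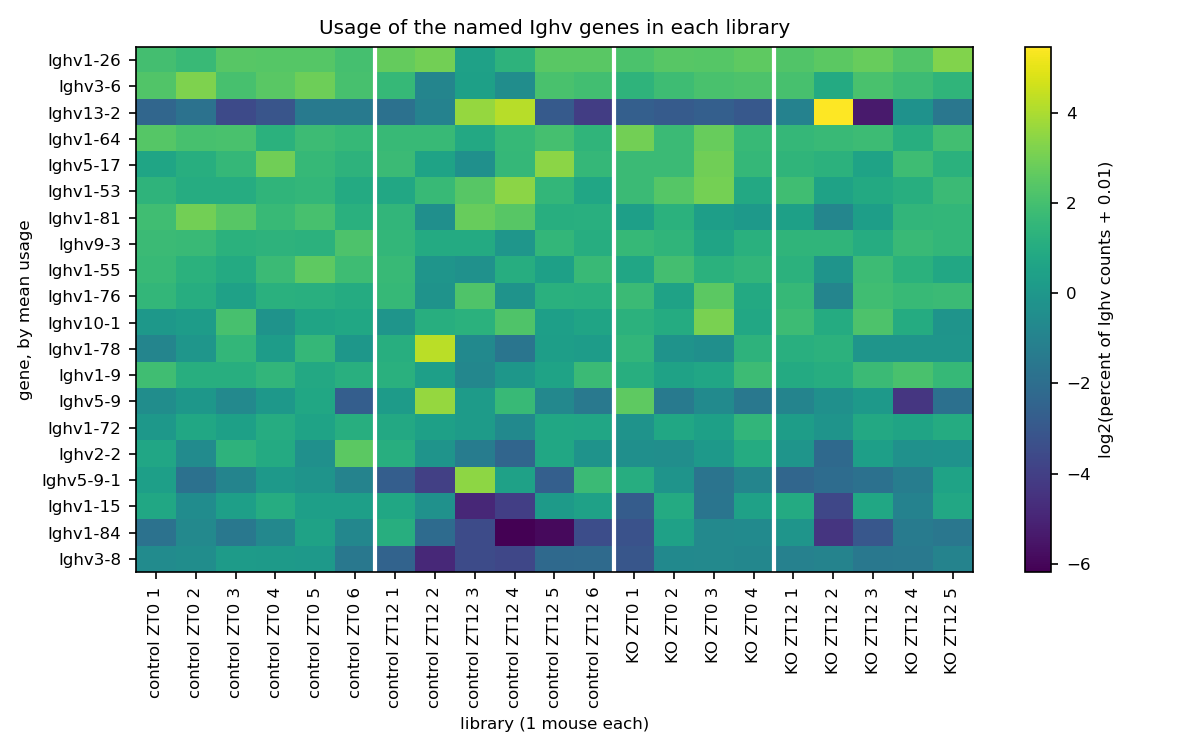
Usage of the 20 named Ighv genes with a mean usage of at least 0.4%, as log2(percent of Ighv counts + 0.01), in each of the 21 libraries (columns, 1 mouse each, white lines between groups). Ighv1-26 is high in nearly every column, and Ighv13-2 is low except in control ZT12 replicates 3 and 4 and KO ZT12 replicate 2.

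The gene with the highest usage was not the same in all mice. 9 different genes led at least 1 library. Ighv1-26 led 8 of the 21, namely control ZT12 replicates 1 and 6, KO ZT0 replicates 2 and 4, and KO ZT12 replicates 1, 3, 4 and 5. It led none of the 6 control ZT0 libraries, where Ighv1-64, Ighv3-6 (replicates 2 and 5), Ighv1-81, Ighv5-17 and Ighv2-2 led with 5.20% to 9.29%. Ighv10-1 led KO ZT0 replicate 3 with 8.69%, and Ighv1-64 led KO ZT0 replicate 1 with 7.79%. Ighv5-17 led control ZT12 replicate 5 with 10.9%.

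Ighv13-2 led 3 libraries, all at ZT12. It held 12.4% of Ighv counts in control ZT12 replicate 3 (95% Wilson interval 12.3 to 12.5), 18.3% in control ZT12 replicate 4 (18.3 to 18.4) and 44.0% in KO ZT12 replicate 2 (43.9 to 44.1). These intervals cover counting error only. In the other 18 libraries it lay between 0.0146% and 0.842%, with a median of 0.169%. Both genotypes are among the 3 libraries. The remaining control ZT12 mice, at 0.266%, 0.487%, 0.126% and 0.0491%, overlapped with control ZT0 (0.0750% to 0.362%). The remaining KO ZT12 mice were at 0.480%, 0.0146%, 0.842% and 0.333%. KO ZT0 spanned 0.117% to 0.150%, and none of those KO ZT12 mice lay inside that range. In bulk RNA, more cells using a gene and more of its RNA per cell cannot be told apart.

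The kappa light chain showed a parallel in the same 3 libraries. Igkv8-28, a V gene of the kappa light chain, held 8.49%, 11.6% and 33.9% of Igkv counts in control ZT12 replicates 3 and 4 and KO ZT12 replicate 2, in the same order as Ighv13-2. It lay between 0.131% and 0.727% in the other 18. Of 256 other heavy and kappa V genes, Igkv8-28 had the usage pattern most like that of Ighv13-2 (Pearson's r = 0.85 on log2 usage over 21 libraries, a description that rests on those 3 libraries). The next highest r was 0.70. Bulk counts do not pair heavy with light chains of single cells.

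Other measured features of these 3 libraries were also read. Xist, the RNA of the inactive X chromosome in female cells, had 8, 19 and 12 counts in them, and 11 libraries, these included, were below 10 CPM. Their Ighm share of heavy chain constant counts was 0.182%, 0.117% and 0.174%. These lay in the upper part of the range over all libraries, 0.0378% to 0.218% with a median of 0.0747%. Their epithelial markers summed to 125, 84.4 and 90.8 CPM, within the range of the others. They were columns 12 to 14 of the deposited table, where the meaning of the column order is not given. The order began again with control ZT0 at columns 8 and 15, and these 3 were the only ZT12 libraries between. The part of these features in the usage was not tested.

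Control ZT12 replicate 2 had another set of prominent genes. Ighv1-78 held 19.0% of its Ighv counts (95% Wilson interval 18.9 to 19.1), against 0.312% to 2.92% in the other 20 libraries. Ighv5-9 held 12.2%, against at most 5.95% elsewhere. Ighv6-3 held 7.63%, against a median of 1.23% elsewhere, but it was not particular to this library. Its next highest usage was 5.72% in control ZT12 replicate 4, which Ighv13-2 led. Among heavy chain genes Ighv6-3 had the usage pattern most like that of Ighv13-2 (Pearson's r = 0.59 on log2 usage). In the light chain of control ZT12 replicate 2, Igkv19-93 held 26.1% of Igkv counts, against 0.512% to 2.80% elsewhere. This library also had the highest immunoglobulin share, 63.6% of all counts, and the lowest summed levels of the markers of naive and memory B cells (11.2 CPM), germinal centre B cells (27.7), T cells (7.81) and myeloid cells (10.4) of the 21. The part of these in the usage was not tested.

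**Figure D2:**
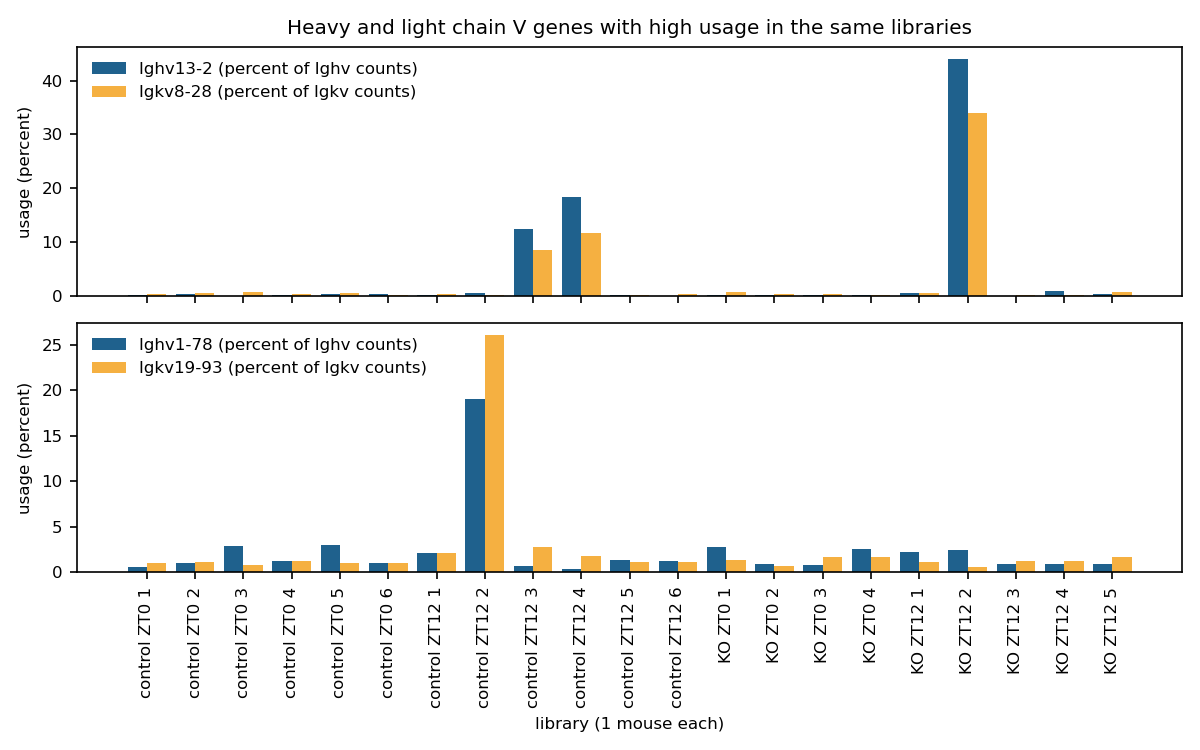
Usage in percent of Ighv counts (blue bars) and of Igkv counts (orange bars) in each of the 21 libraries, for Ighv13-2 with Igkv8-28 (top) and Ighv1-78 with Igkv19-93 (bottom). Ighv13-2 and Igkv8-28 are both high in control ZT12 replicates 3 and 4 and KO ZT12 replicate 2, and Ighv1-78 and Igkv19-93 are both high in control ZT12 replicate 2.

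To describe how evenly a library used its V genes, the effective number was computed, which is the number of equally used genes that would give the same Shannon entropy. In control mice at ZT0 it was 55.5, 50.5, 53.8, 53.4, 51.1 and 54.0 in replicates 1 to 6. In control mice at ZT12 it was 54.7, 25.9, 32.1, 27.1, 47.7 and 53.9. The control ZT0 mice thus lay within a narrow band, whereas 3 of the 6 control ZT12 mice lay far below it and 2 lay inside it. In KO mice it was 45.9, 60.0, 38.4 and 57.6 at ZT0 and 56.8, 16.0, 51.2, 55.1 and 53.2 at ZT12.

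The group means were 53.0 ± 1.91 (SD, n = 6) for control ZT0, 40.2 ± 13.4 (n = 6) for control ZT12, 50.5 ± 10.2 (n = 4) for KO ZT0 and 46.5 ± 17.1 (n = 5) for KO ZT12. Every pair of groups overlapped, and the means of control ZT12 and KO ZT12 differed by less than either SD. No p was computed, since the effective number is a score over the members. The lowest 5 libraries were control ZT12 replicates 2, 3 and 4, KO ZT0 replicate 3 and KO ZT12 replicate 2. Without its leading gene Ighv13-2, KO ZT12 replicate 2 rose from 16.0 to 41.8, whereas control ZT12 replicates 2, 3 and 4 without their leading genes reached 30.5, 34.2 and 31.8. In the latter 3 the low value therefore did not rest on 1 gene.

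The effective number of the Igkv genes lay between 45.3 and 48.5 in control mice at ZT0. It was 44.5, 23.8, 30.0, 33.8, 41.4 and 46.0 in control mice at ZT12, with the same 3 replicates lowest. In KO mice it was 33.9, 49.6, 38.8 and 46.3 at ZT0 and 51.5, 22.4, 45.4, 43.7 and 47.2 at ZT12. KO ZT12 replicate 2 was the lowest of all 21 for both chains.

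**Figure D3:**
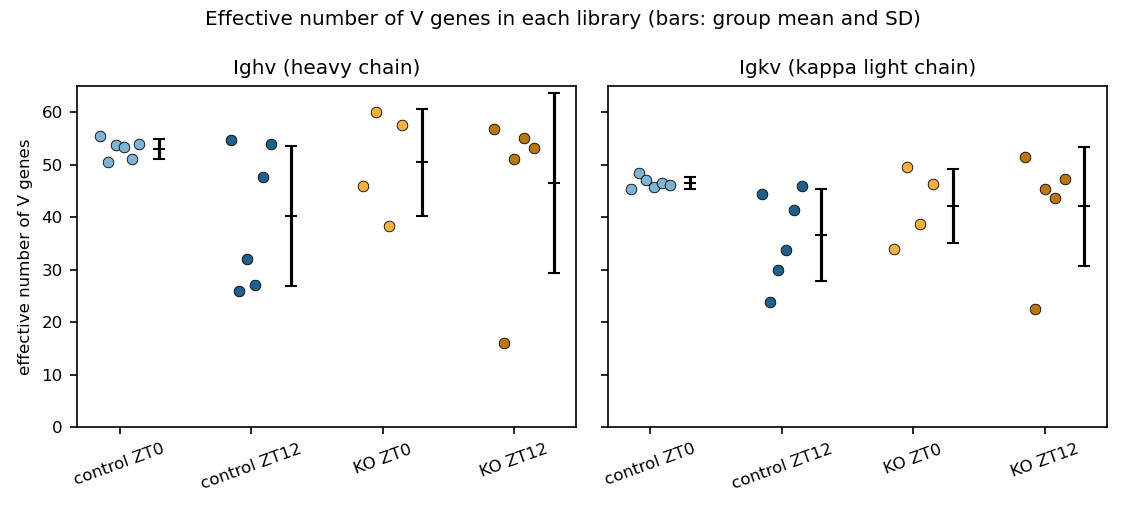
Effective number of Ighv genes (left) and Igkv genes (right) in each library (points, 1 mouse each) by group, with the group mean and SD beside them. The control ZT0 points lie together (50.5 to 55.5 for Ighv), and the low Ighv points are control ZT12 replicates 2, 3 and 4, KO ZT0 replicate 3 and KO ZT12 replicate 2 (16.0).

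Mice could also be compared by the overlap of their usage, the sum over genes of the smaller usage of a pair. Over all 210 pairs the median overlap was 64.8%, from 38.9% between control ZT12 replicates 2 and 3 to 79.4% between control ZT12 replicate 6 and KO ZT12 replicate 3. Within control ZT0 all 15 pairs shared 69.7% to 77.9%. Within control ZT12 the 15 pairs ranged from 38.9% to 75.8%, within KO ZT0 the 6 pairs from 55.8% to 72.9%, and within KO ZT12 the 10 pairs from 45.6% to 78.0%. The range between groups, 39.1% to 79.4%, covered all but the lowest pair within a group. Control ZT12 replicates 3 and 4, which both used Ighv13-2 heavily, overlapped by 61.3%, the highest value of either with any other library.

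The comparison of ZT12 with ZT0 in control mice asked whether members differ over the day. The edgeR test compared counts scaled to the whole library rather than usage. Ighv3-8, a family 3 gene at chr12:114322327-114322801 (ENSMUSG00000076674), was lower at ZT12. Its usage was 0.670%, 0.707%, 1.13%, 1.09%, 1.05% and 0.343% in control mice at ZT0 and 0.168%, 0.0253%, 0.0772%, 0.0666%, 0.210% and 0.211% at ZT12, so that the groups did not overlap. Its counts were lower at ZT12 by 2.28 on the log2 scale (SE 0.47, edgeR quasi-likelihood test, adjusted p = 0.0275 over all genes). All 6 ZT12 mice lay below all 6 ZT0 mice, which were other animals. Ighv3-8 was the only member called, 1 of 136 (0.735%) against a background of 1.73% of all 20256 genes tested. With only the groups of the comparison in the fit it was not called (log2 change -2.28, edgeR adjusted p = 0.0798), nor without control ZT12 replicates 3 and 4 and KO ZT12 replicate 2 (log2 change -2.02, edgeR adjusted p = 0.177), an alternative chosen after the data were seen. The call was lost without any of control ZT0 replicates 1 to 5 or control ZT12 replicates 3 and 4 (0 members called). Without control ZT12 replicate 1 or 6 the count was 3 or 2 members. Calls among all genes moved as well, from 350 to between 31 and 143 in the fits that lost the Ighv3-8 call. They were 944 or 687 without control ZT12 replicate 1 or 6, 38 with only the groups of the comparison and 15 without the 3 libraries above.

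In CPM the ranges of the groups did not overlap for Ighv3-8 alone among the members, lower at ZT12, where 0.859% of all genes were lower without overlap, and for 0 members higher, where 0.745% of all genes were. In usage, which has no counterpart over all genes, Ighv1-38 was also lower without overlap (at most 0.00273% at ZT12, at least 0.00281% at ZT0). At an unadjusted p under 0.05 there were 27 members (14 higher, 13 lower, 19.9%), against 18.1% of all genes. DESeq2 called 9 members, 5 higher and 4 lower, where it called 8.5% of the genes it tested. With summed Ighv counts as library size, the scaling nearest to usage, edgeR called 12 members, 3 higher and 9 lower. That fit called 5331 of 20256 genes. In the main fit the median log2 change was 0.00 over the members and 0.01 over all genes. The member nearest to Ighv3-8 in sequence is Ighv3-6, at 88.0% identity and with no shared 75-base stretch. Ighv3-6 was at 5.91% ± 2.04 (SD, n = 6) at ZT0 and 2.30% ± 1.65 (n = 6) at ZT12 in control mice, with overlapping ranges (log2 change -0.90, SE 0.41, edgeR adjusted p = 0.258). It was called with summed Ighv counts as library size. Ighv13-2, with the high values of 2 of 6 control ZT12 mice, had a log2 change of 5.08 with an SE of 1.77 (edgeR adjusted p = 0.151). It was among the 9 members that DESeq2 called.

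In KO mice no member was called between ZT12 and ZT0 by edgeR, as for all genes tested (0%). At an unadjusted p under 0.05 there were 10 members (7.35%) against 8.01% of all genes, and DESeq2 called 1, Ighv13-2, which was high in 1 of the 5 KO ZT12 mice, against 0.319% of the genes it tested. In CPM the ranges did not overlap for 1 member higher at ZT12 (Ighv8-2), against 1.22% of all genes, and 1 lower (Ighv1-12), against 1.41%. In usage only Ighv1-12 was without overlap. Ighv8-6 had the smallest p, with a log2 change of 5.17 (SE 1.47, edgeR adjusted p = 0.486). It had 0, 3, 0 and 5 counts in KO mice at ZT0 and 4, 0, 223, 11 and 98 at ZT12, and the ranges overlapped. Ighv3-8 in KO mice was at 0.477% ± 0.247 (SD, n = 4) at ZT0 and 0.431% ± 0.0831 (n = 5) at ZT12, with a log2 change of 0.19 (SE 0.52, edgeR adjusted p = 0.955).

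The test of whether the change with time differed between genotypes called 0 members and 0% of all genes by edgeR, and 0 members and 0.0279% of the genes tested by DESeq2. At an unadjusted p under 0.05 there were 18 members (13.2%) against 10.8% of all genes. For Ighv3-8 the difference in change was 2.47 on the log2 scale (SE 0.71, edgeR adjusted p = 0.442), so a difference between genotypes was not shown after correction. The smallest p belonged to Ighv6-5 (log2 difference 6.37, SE 1.87, edgeR adjusted p = 0.442), a gene with 69 counts over all libraries and at most 19 in any.

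At ZT0, KO and control mice differed in no member by edgeR, against 0.00987% of all genes called, and in 0 by DESeq2, against 0.0247%. In CPM the ranges did not overlap for 1 member higher in KO mice (Ighv1-12), against 0.504% of all genes, and 1 lower (Ighv1-81), against 0.474%. In usage the ranges of every member overlapped. At an unadjusted p under 0.05 there were 20 members (14.7%), against 4.9% of all genes. The fit gave a median SE of 0.86 for the members and 0.38 for all genes in this comparison. Ighv1-11 had the smallest p, with a log2 change of 2.51 (SE 0.73, edgeR adjusted p = 0.926). It had 126, 210, 959 and 69 counts in the KO libraries and 29 to 94 in the control libraries. Leaving out 1 library at a time gave log2 changes of 1.04 to 2.88, the lowest without KO ZT0 replicate 3, which holds the 959 counts.

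At ZT12, the pseudogene Ighv1-38, at chr12:114910011-114910443 (ENSMUSG00000103873), was higher in KO mice. It had 76, 62, 44, 189 and 78 counts in KO libraries and 22, 2, 31, 5, 9 and 20 in control libraries, without overlap. Its log2 change was 2.64 (SE 0.45, edgeR adjusted p = 0.0462). It was the only member called (0.735%), against 0.0148% of all genes, 3 in number. The call was lost in 17 of 21 fits that left out 1 library, those without any of the KO ZT12 replicates except 3 among them. In each of those 21 fits 2 to 4 of all genes were called. With only the groups of the comparison it was not called either (edgeR adjusted p = 0.812), nor with library size alone as the scaling (edgeR adjusted p = 0.107), with summed Ighv counts as library size (0.109) or with no count filter (0.0773). Its usage was at most 0.0162% in any library, and its nearest member, Ighv1-34, was 91.7% identical.

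Without overlap in CPM, 3 members were higher in KO mice at ZT12 (Ighv3-8, Ighv1-11 and Ighv1-38, 2.21%), against 0.242% of all genes, and 0 were lower, against 0.138%. For Ighv3-8 and Ighv1-38 the low values were those of the same 6 control ZT12 mice that enter the comparison with control ZT0. At an unadjusted p under 0.05 there were 22 members (16.2%), against 8.83% of all genes, and DESeq2 called 2, Ighv1-38 and Ighv8-6, against 0.0574% of the genes it tested. The median log2 change was 0.40 over the members and -0.01 over all genes. Leaving out control ZT12 replicates 3 and 4 and KO ZT12 replicate 2, an alternative chosen after the data were seen, 0 members were called in any of the 5 comparisons. Of all 19885 genes then tested, 15 were called between the times in control mice and 0 to 3 in each other comparison. Ighv1-26, the most used gene, was at 6.38% ± 1.85 (SD, n = 5) in KO and 4.91% ± 2.45 (n = 6) in control mice at ZT12 (log2 change 0.41, SE 0.33, edgeR adjusted p = 0.722).

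**Figure D4:**
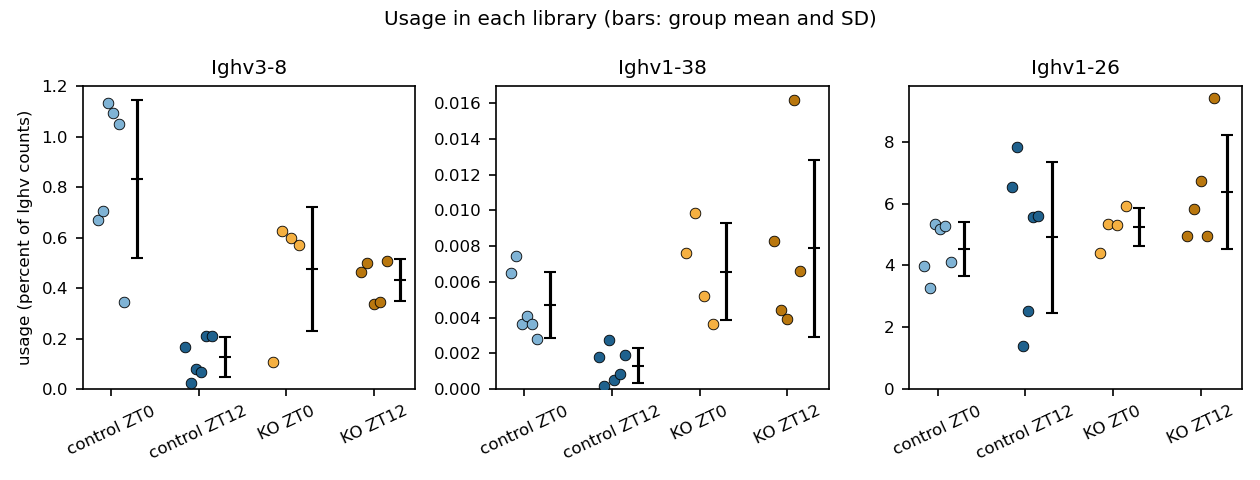
Usage in percent of Ighv counts of Ighv3-8, Ighv1-38 and Ighv1-26 in each library (points, 1 mouse each) by group, with the group mean and SD beside them and a scale for each gene. The control ZT12 points of Ighv3-8 lie under all control ZT0 points (at most 0.211% against at least 0.343%), and the groups overlap for Ighv1-26.

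Within the members with a mean usage of at least 0.5%, the steadiest across mice were Ighv9-3, Ighv1-64, Ighv1-72, Ighv1-26 and Ighv1-9, with an SD of 0.47 to 0.69 on the scale of log2(usage + 0.01). Ighv9-3 lay between 0.949% and 4.67% in all libraries. The most variable were Ighv13-2 (SD 2.71), Ighv1-84 (2.00), Ighv1-15 (1.82), Ighv5-9-1 (1.72) and Ighv5-9 (1.72). Ighv5-9-1 held 11.1% in control ZT12 replicate 3 and 0.0537% in control ZT12 replicate 2. Ighv1-15 was low in some of the libraries in which a few genes dominated, with 0.0243% and 0.0514% in control ZT12 replicates 3 and 4 and 0.0662% in KO ZT12 replicate 2, against a median of 1.32%.

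By family, the number after Ighv in the symbol, the 71 members of family 1 (the large J558 group) held 54.1% ± 7.43 of usage (SD, n = 21) and made up 52.2% of the members. Family 1 ranged from 29.3% in KO ZT12 replicate 2, where Ighv13-2 dominated, to 63.2% in KO ZT12 replicate 5. Family 5 (12 members) held 10.6% ± 3.73 and was at 14.4% ± 3.68 (SD, n = 6) in control mice at ZT12 and 9.08% ± 2.04 (n = 6) at ZT0, with ranges of 11.0% to 20.4% and 7.52% to 13.2% that overlapped. Families 3, 2, 10, 9 and 14 held 4.00% to 5.14% each. Family 13, with Ighv13-2 as its only member here, had a mean of 3.77% and a median of 0.266%.

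The members lie on the minus strand between 113572927 (Ighv5-1, nearest to the D and J segments) and 116010093 (Ighv1-86). Divided into 4 sets of 34 by position, from the D segments outwards, they held 20.97% ± 4.41, 30.3% ± 9.90, 20.8% ± 3.93 and 27.9% ± 5.39 (SD, n = 21). The second set holds Ighv13-2 and reached 65.6% in KO ZT12 replicate 2. Both end members are pseudogenes, with 419 counts for Ighv5-1 and 13 for Ighv1-86 over all libraries. The 28 pseudogenes together held 0.0188% to 0.143% of usage. Ighv1-2 and Ighv1-21 were the most used pseudogenes, and single libraries carried their peaks, with 980 of 2558 counts of Ighv1-2 in KO ZT0 replicate 4 and 640 of 1349 counts of Ighv1-21 in KO ZT0 replicate 2.

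**Figure D5:**
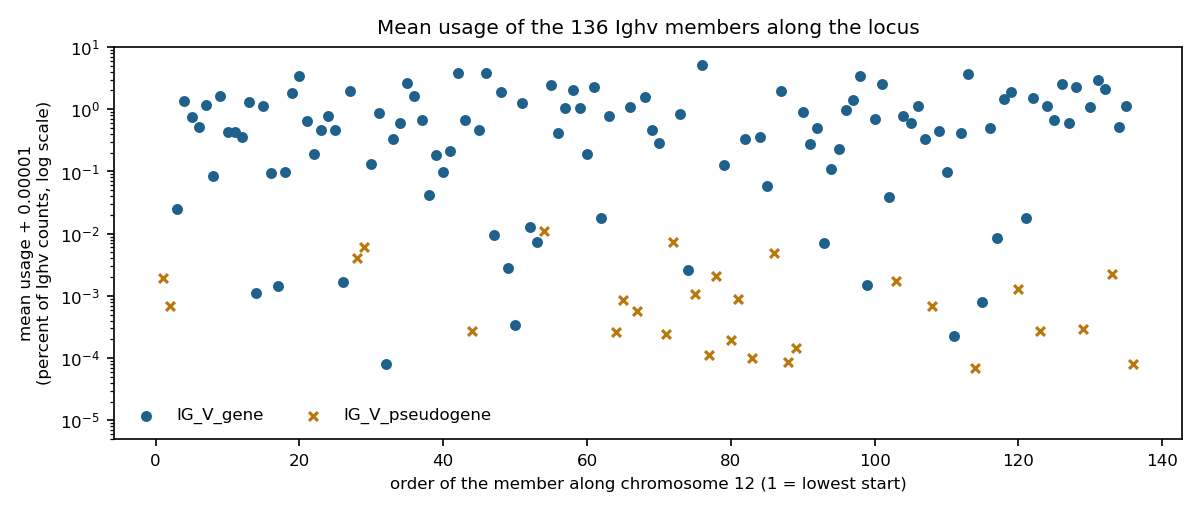
Mean usage over 21 libraries (percent of Ighv counts, plus 0.00001, log scale) of the 136 members in their order along chromosome 12, with IG_V_gene members as circles and IG_V_pseudogene members as crosses. Genes with a mean usage above 1% occur along the whole order, and all 28 pseudogenes lie near or below 0.01%.

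The genes that rearrange and mutate V segments were checked from a list of 26. Rag1 and Rag2, the recombinase of V(D)J joining, had 0 counts in every library, which allows up to 3 counts per library. Dntt, which adds bases at the joints, had 14 counts over all libraries. Of the 24 list genes that were tested, edgeR called 0 in each of the 5 comparisons (2 to 4 at an unadjusted p under 0.05, where 4.9% to 18.1% of all genes were). Of the 8 heavy chain constant genes, edgeR called 0 in each comparison, with 3 at an unadjusted p under 0.05 between the times in control mice, where 18.1% of all genes were. Igha among them had a log2 change of 0.36 (SE 0.12, edgeR adjusted p = 0.12).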

How the data were processed

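RNA-seq was performed on sorted IgA+ plasma cells of 21 mice, 1 library each (poly-A selected, paired-end). The files deposited by the authors hold raw counts for each gene, with its length and coordinates; aligner, counter, use of strand and genome build are not given in the sources used here, so counts of near-identical or overlapping V genes are uncertain. All 136 members had the coordinates of GENCODE M21 (GRCm38), as had 52018 of 53620 matched genes. DESeq2 is named in the submitters' processing notes.

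Usage was the percentage of the summed Ighv counts of a library. Differences were tested on the counts of all 20256 genes with a total of 10 or more by edgeR 4.0.16 (robust quasi-likelihood, TMM, 4 group means, R 4.3.3), with Benjamini-Hochberg adjustment over all genes and a threshold of 0.05. The test was also run on simulated data. Alternatives were DESeq2 1.42.0, other scalings and filters, a threshold of 0.01, separate fits, a replicate block and each library left out. Identities came from pairwise alignments of M21 transcripts (Biopython 1.88).

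Members and lists were chosen with earlier results of these data known. Named genes were the 12 most used, those that led a library, those called (or with the smallest p) in a comparison, the 5 most and least variable of those with a mean usage of at least 0.5%, the 2 most used pseudogenes and the end members; Ighv6-3, Ighv8-2, Ighv1-12 and the kappa genes were named after their values were seen. Lists covered recombination and hypermutation genes, heavy chain constant genes and cell type markers. Some single genes of these lists are not reported here. With 753472 to 1405138 Ighv counts per library, counting error is small beside the spread between mice. That libraries stem from separate mice is taken from the study, and p-values measure only the spread between these samples.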

Additional observations from a re-analysis of the deposited data

Results flagged for a closer look

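A library was set apart where its gap to the nearest library of its group, divided by the range of the group, exceeded Dixon's 95% critical value. This was tested for the named genes and for the effective numbers in the 4 groups, 122 tests with any spread, of which 27 were met. Chance flags about 1 in 20 groups, but many of the named genes were chosen because they led a library, varied most or had the smallest p in these libraries, so the 27 cannot be read against that share.

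KO ZT12 replicate 2 stood apart from its group by its usage of Ighv13-2 (44.0%), by its low usage of Ighv1-76 (0.534%), by its effective number of Ighv genes (16.0) and by that of Igkv genes (22.4). Its leading usage, 44.0%, is the same value. Ighv5-9-1 was set apart at 1.48% in KO ZT12 replicate 5.

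Among control mice at ZT12, Ighv1-78 (19.0%) and Ighv5-9 (12.2%) stood apart in replicate 2, Ighv5-9-1 (11.1%) and Ighv1-86 (0.000176%) in replicate 3, Ighv5-17 (10.9%) and Ighv6-5 (0.000368%) in replicate 5, and Ighv1-84 (2.19%) in replicate 1. The Ighv1-86 and Ighv6-5 values are only 2 and 4 counts. Ighv13-2 did not stand apart in this group, since 2 of the 6 mice were high.

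Among control mice at ZT0, replicate 4 stood apart by Ighv5-17 (7.67%) and Ighv1-2 (0.0309%), and replicate 3 by Ighv10-1 (4.25%) and Ighv1-86 (0.000976%). Replicate 5 stood apart by Ighv8-6 (0.000879%) and Ighv1-84 (1.44%), and replicate 6 by Ighv2-2 (5.81%). The Ighv1-86 and Ighv8-6 values are only 8 and 7 counts.

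Among KO mice at ZT0, replicate 3 stood apart by Ighv5-17 (7.75%) and Ighv10-1 (8.69%), and replicate 1 by Ighv5-9 (5.95%) and by its low Ighv3-8 (0.108%). Replicate 4 stood apart by Ighv6-5 (8.32e-05%) and Ighv1-2 (0.0815%), and replicate 2 by Ighv1-21 (0.0849%). The Ighv6-5 value is a single read, 1 count against 0 in the rest of the group.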

How the results depend on the processing

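In control mice between the times, 1 member was called, against 9 by DESeq2, 12 with the summed Ighv counts as library size, and 0 each with only the groups of the comparison, with the replicate block, at an adjusted p under 0.01 and without control ZT12 replicates 3 and 4 and KO ZT12 replicate 2 (chosen after the data were seen). Leaving out 1 library gave 0 to 3. Of all genes, 350 were called in the main fit and 31 to 944 with 1 library left out. In the settings just named with 0 members, 38, 183, 14 and 15 of all genes were called, in that order. Of KO against control at ZT12, 1 member was called, against 2 by DESeq2 and 0 each with library size only, no count filter, only the groups of the comparison, the replicate block, the summed Ighv counts, an adjusted p under 0.01 and, chosen after the data were seen, the Xist level as a covariate and leaving out those 3 libraries; leaving out 1 library gave 0 to 1. Between the times in KO mice DESeq2 called 1 against 0. The interaction and KO against control at ZT0 stayed at 0 under each alternative run. The cause of these shifts was not tested.

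Scaling to the summed Ighv counts moved the median of all genes by -0.44 on the log2 scale in control mice and by -0.27 in KO mice between the times, and 5331 of 20256 genes were then called in control mice. Same-numbered libraries of different groups did not deviate together (correlations of -0.31 to 0.38), so the numbers do not pair the mice.

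Leaving out each library in turn, the mean effective number ranged from 52.6 to 53.6 for control ZT0, 37.3 to 43.1 for control ZT12, 47.3 to 54.5 for KO ZT0 and 43.9 to 54.1 for KO ZT12, and the mean leading usage from 6.28% to 7.10%, 10.7% to 13.4%, 6.36% to 7.47% and 6.52% to 16.3%. Counts per kb, IG_V_gene members only or no count minimum moved these means by less than 1 SD. The log2 changes of Ighv3-8, Ighv1-38, Ighv8-6, Ighv6-5, Ighv1-11, Ighv13-2 and Ighv3-6 kept their sign under every alternative in which they were fitted (filterByExpr kept 117 of the 136 members). Depth limits only the rarest members.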
